A study of Rattus norvegicus with 172 samples.

Results

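Livers of 8 male Fischer 344 rats on the diet labelled E, which gave 1.0 mg of 3-methylfuran per kg body weight a day, were compared over all genes with livers of 8 control rats on the diet labelled C, with a dose of 0, in the same 90-day experiment. The 16 rats were picked by the numbers in their sample titles, with ME for 1.0 mg/kg and MC for controls, out of 70 rats in the series. The 3-methylfuran experiment also held 8 rats at 0.02 mg/kg and 8 at 0.075 mg/kg. Furan, the parent ring without the methyl group, was given in a second experiment. From it 7 rats at 0.5 mg/kg, 7 at 2.0 mg/kg and 8 control rats were compared. Its 8 rats at 0.03 mg/kg and 8 at 0.12 mg/kg entered only the fit over all 70 rats. All rats were males of that strain, no allele or second agent is labelled, and RNA came from whole flash-frozen liver, 1 rat per library. Polyadenylated RNA was sequenced, each library of the 3-methylfuran experiment in 3 runs.

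Furan and its methylated relatives form in heated foods. In rat liver furan is oxidised by cytochrome P450 enzymes, Cyp2e1 above all, to an unsaturated dialdehyde that reacts with thiols and amines of glutathione and proteins, and methylfurans are oxidised to similar reactive carbonyls. The liver is the main target organ of furan in rats, where hepatocyte injury, regenerative cell division and bile duct proliferation are known at high doses. The comparison asks how far liver RNA at the highest 3-methylfuran dose departs from that of untreated rats.

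The libraries held 12806865 to 24258605 counts in 3-methylfuran rats and 11084613 to 18877945 in control rats, and the 10 most abundant genes took 26.3% to 29.9% and 26.8% to 29.2% of them. Hepatocyte markers dominated in every rat: Alb, which encodes albumin, ran over 107830 to 147560 CPM (median 117490) in 3-methylfuran rats and 131920 to 153720 CPM (median 147020) in control rats. Levels are given in CPM, a gene's share of its library's counts on a fixed scale and not per gene length, after scaling by trimmed mean of M-values (TMM), a factor of 1.05 to 1.23 in 3-methylfuran rats and 0.919 to 0.974 in control rats. The factors of the groups did not overlap, so every direction below is relative to the bulk of genes, whose median log2 fold change was -0.0014. Without the factor that median was 0.25.

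At 1.0 mg/kg, 5207 of 11930 genes tested (43.6%) were called, meaning a Benjamini-Hochberg adjusted p under 0.05 in the edgeR quasi-likelihood test. Of these, 2527 (21.2% of genes tested) were higher and 2680 (22.5%) were lower in 3-methylfuran rats. Without the scaling factor the same test called 6081 genes higher and 923 lower, so 86.8% of calls were increases where 48.5% were with it. Most changes were small: the median absolute log2 fold change was 0.449 among genes called higher and 0.376 among genes called lower, and 1587 genes (13.3%) were called with at least a 1.5-fold change. At least a 4-fold change was seen for 66 genes called higher and 33 called lower. In 1371 genes (11.5%) the lowest rat of one group lay above the highest rat of the other, 646 of them (5.41% of genes tested) higher and 725 (6.08%) lower in 3-methylfuran rats. Because whole liver was sequenced, less RNA per cell and fewer cells of a type cannot be told apart in any of these values. Replicates are separate rats.

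**Figure D1:**
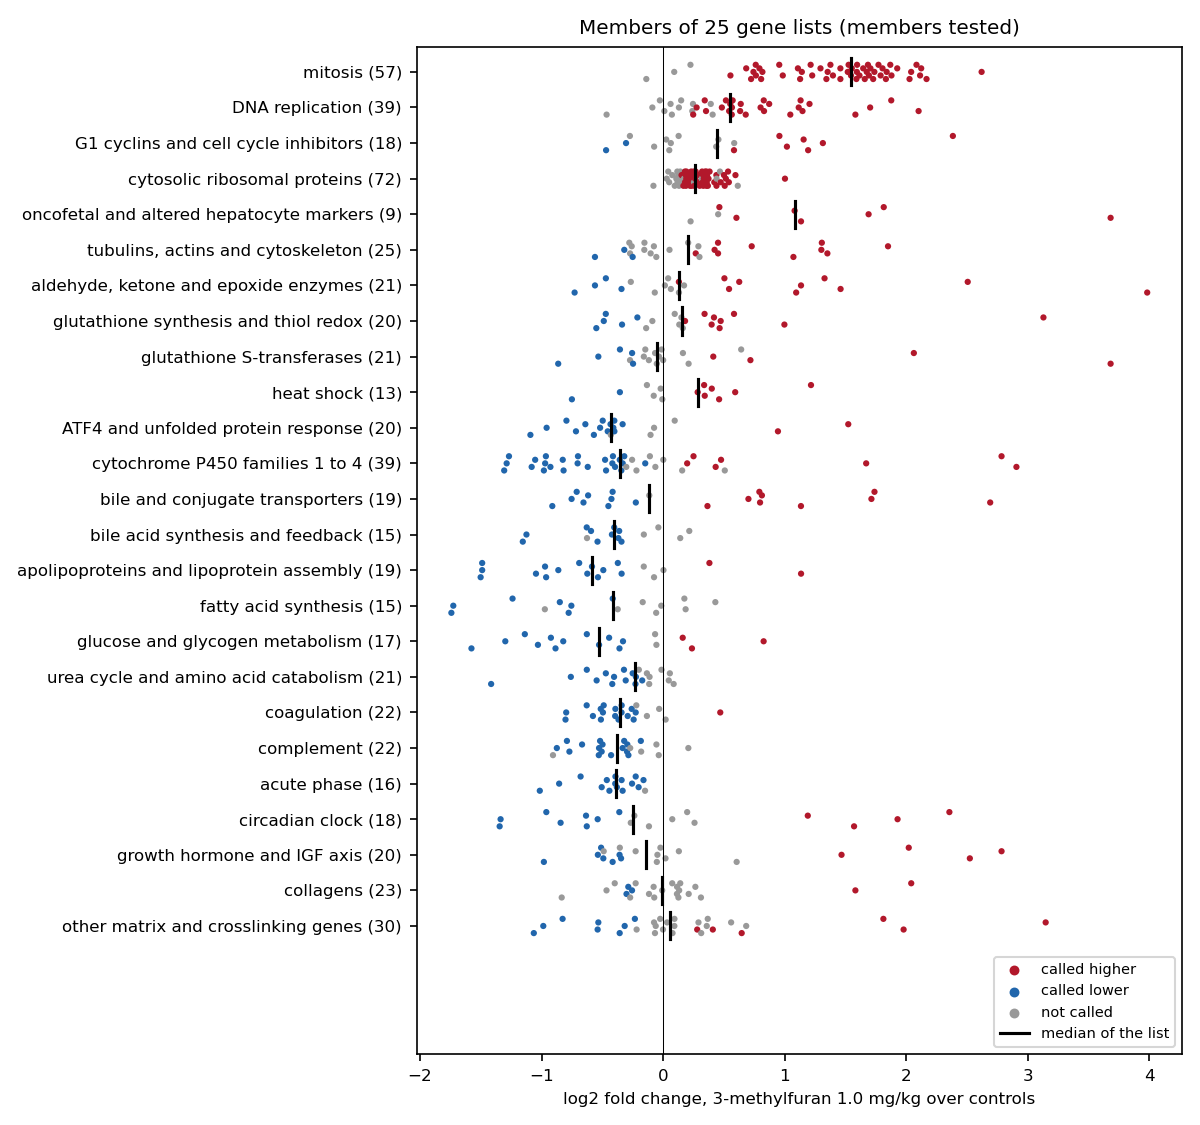
Log2 fold change of each tested member (points, coloured by call) of 25 gene lists, 3-methylfuran 1.0 mg/kg over control rats, with a bar at each list's median. Mitosis and cytosolic ribosomal protein genes held no member called lower, and the acute phase, complement and bile acid lists none called higher.

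The largest increases were in genes that adult liver expresses at low levels. Phgdh, the first enzyme of serine synthesis from a glycolytic intermediate, ran over 14.6 to 49.6 CPM (median 34.1) in 3-methylfuran rats and 0.133 to 1.92 CPM (median 0.957) in control rats, a log2 fold change of 4.93 ± 0.43 (SE; adjusted p = 2.1e-10). Gstp1, the pi class glutathione S-transferase and the classic marker of altered hepatocyte foci in rats, ran over 22.3 to 638 CPM (median 58.1) and 6.75 to 21.6 CPM (median 6.96), a log2 fold change of 3.68 ± 0.59 (adjusted p = 8.9e-06). No control rat reached the level of any 3-methylfuran rat in either gene. Gstp1 spread widely among the treated rats: rat ME587 stood at 638 CPM and the other 7 between 22.3 and 105 CPM, and without that rat the log2 fold change was 2.51.

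Several other genes of low control level were higher with no overlap between groups. Some of them pass the filter on low counts (0.672 CPM in at least 8 of the 32 rats) only with the 1.0 mg/kg rats counted, so that they could be tested only because they were high there: these are Aldh1a7, Ildr1, Setd7, Mmp12, Gdf3 and Gpx2 here, and Knl1, Anln, Ccne1, Cyp2c24, Mthfd1l and Col20a1 further on. There were 321 such genes among the 11930, of which 146 were called higher and 1 lower. With such members left aside, fewer were called higher in some lists given further on. Called higher were then 9 of 20 aldehyde, ketone and epoxide enzymes, 8 of 19 glutathione synthesis and thiol redox genes and 6 of 38 cytochrome P450 genes. So were 3 of 20 folate and methyl-group genes, 26 of 38 DNA replication genes, 6 of 17 G1 genes, 7 of 21 chromatin genes and 2 of 15 pericentral genes. Prr32 ran over 14.2 to 31.5 CPM (median 22.6) in 3-methylfuran rats and 0.28 to 1.83 CPM (median 0.945) in control rats, a log2 fold change of 4.46 ± 0.31 (adjusted p = 3.2e-12). Aldh1a7, an aldehyde dehydrogenase of the retinal-oxidising family, ran over 3.08 to 12.9 CPM (median 7.13) and 0.0662 to 1.19 CPM (median 0.219), a log2 fold change of 3.98 ± 0.60 (adjusted p = 3.3e-06). Car2, a cytosolic carbonic anhydrase, rose to 23.5 to 44.3 CPM (median 36.1), against 3.44 to 9.16 CPM (median 5.4) in control rats. Tusc3, a subunit of the oligosaccharyltransferase complex that glycosylates new proteins, had the smallest adjusted p of all genes (9.7e-14), with 5.81 to 10.1 CPM (median 6.88) in 3-methylfuran rats and 0.861 to 1.64 CPM (median 1.26) in control rats. Ica1 rose by 3.20 ± 0.22 on the log2 scale. Ildr1 had 0.897 to 1.7 CPM (median 1.29) in 3-methylfuran rats and 0 to 0.265 CPM (median 0.0794) in control rats, a fitted log2 fold change of 3.73 ± 0.39 that rests on control levels near 0, and Setd7, a lysine methyltransferase, had one of 2.85 ± 0.29. Mmp12, a macrophage elastase, ran over 0.743 to 6.4 CPM (median 3.07) in 3-methylfuran rats and 0 to 0.649 CPM (median 0.307) in control rats (log2 fold change 3.15 ± 0.48, adjusted p = 3.3e-06). Gdf3, a ligand of the TGF-beta family, was close to the limit of detection in control rats, at 0 to 0.372 CPM (median 0.0733), and reached 0.842 to 1.59 CPM (median 1.05) in 3-methylfuran rats. Its log2 fold change of 3.48 became 4.11 without control rat MC508, the only control rat above 0.111 CPM. Gpx2, an epithelial glutathione peroxidase, rose by 3.13 ± 0.60 on the log2 scale and its groups overlapped (3.33 to 21 CPM (median 9.4) against 0.278 to 3.65 CPM (median 0.498)).

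The largest decreases included conjugating enzymes and an oxidase. Inmt, which methylates indoleamines and other small amines, ran over 3.98 to 24.9 CPM (median 8.63) in 3-methylfuran rats and 50.2 to 182 CPM (median 83.4) in control rats, a log2 fold change of -3.23 ± 0.35 (adjusted p = 1.8e-08). Gimd1 ran over 0.693 to 3.77 CPM (median 1.32) and 6.91 to 24.7 CPM (median 14.6) (log2 fold change -3.16 ± 0.33, adjusted p = 7.1e-09). In both genes every 3-methylfuran rat lay below every control rat. Nox4, a hydrogen peroxide producing NADPH oxidase, fell to 1.52 to 9.87 CPM (median 3.3), against 7.97 to 31.2 CPM (median 24) in control rats. Its log2 fold change was -2.54 ± 0.31 (adjusted p = 1e-07), and the lowest control rat, rat MC508, lay inside the treated range. Rgs16, a brake on G protein signalling, fell by 2.73 on the log2 scale, Stac3 by 2.12 and Plekhb1 by 1.60, each with no overlap. Igfn1 and Ky also fell, by 2.92 and 3.67, with groups that overlapped and control medians of 1.41 and 0.774 CPM; without control rat MC512 Ky fell by 3.04. The smallest adjusted p among decreases belonged to Serpina4, the tissue kallikrein inhibitor kallistatin (429 to 728 CPM (median 562) in 3-methylfuran rats, 1250.4 to 1709 CPM (median 1331) in control rats, log2 fold change -1.24 ± 0.083, adjusted p = 2e-13), to Cpq, a secreted carboxypeptidase (-0.90 ± 0.061, adjusted p = 2e-13), and to Cyp2d1 (-1.05 ± 0.07, adjusted p = 2e-13).

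**Figure D2:**
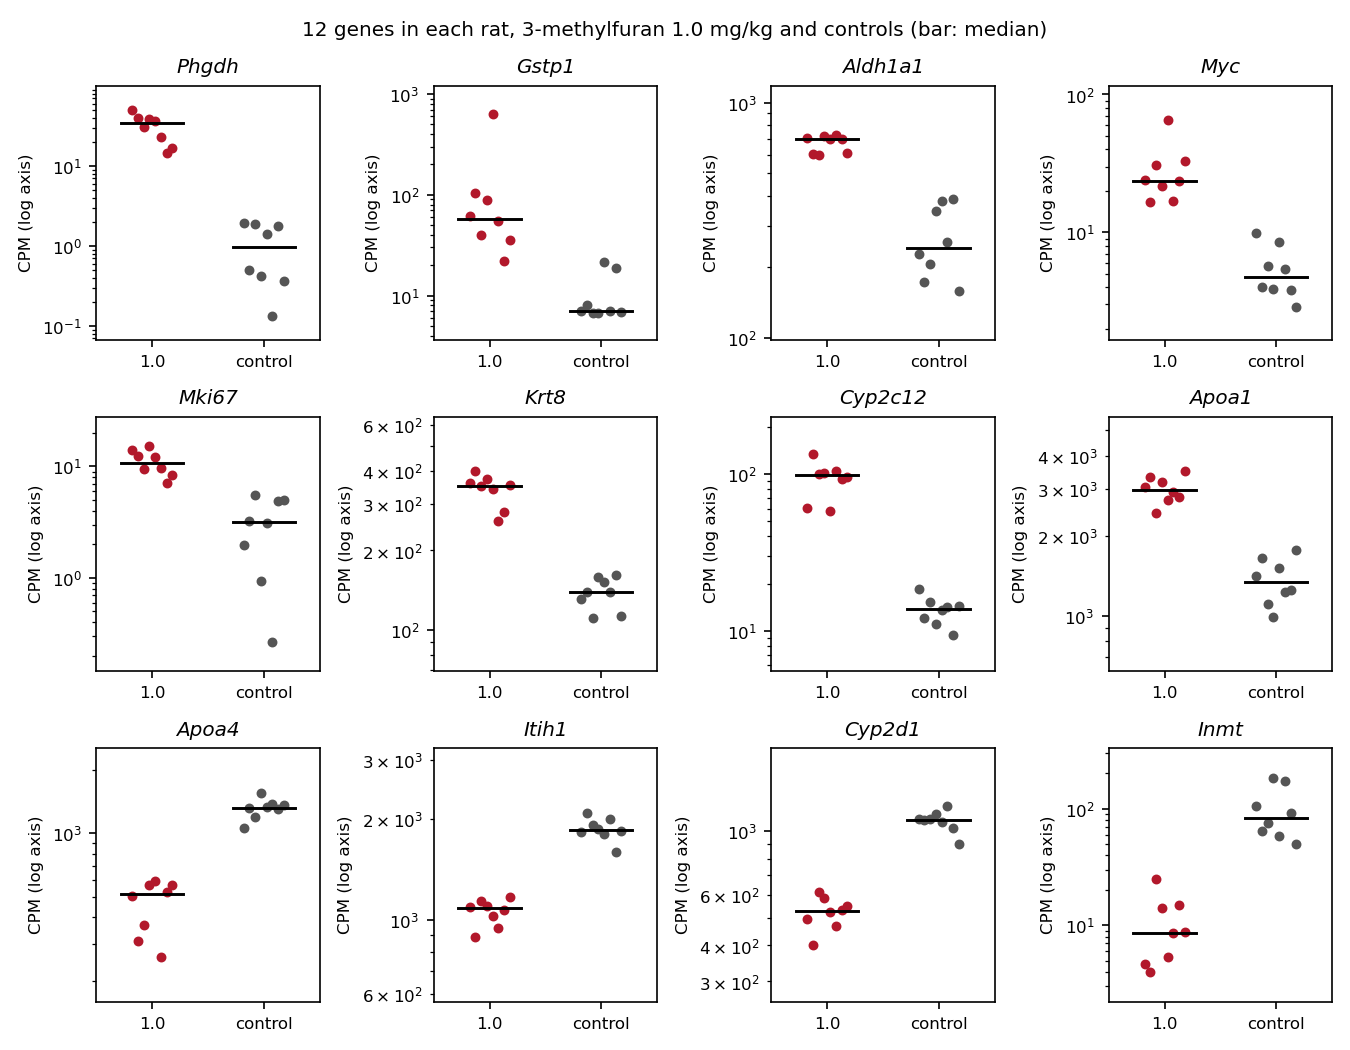
CPM of each rat on a log axis for 12 genes, 3-methylfuran 1.0 mg/kg left of control, 8 rats each, with a bar at each group's median. The groups do not overlap in any of the 12 genes, and in Gstp1 rat ME587 at 638 CPM stands above the other treated rats.

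Genes of cell division were higher in 3-methylfuran rats. Of 57 mitosis genes tested, 54 were called higher and none lower, with a median log2 fold change of 1.55, against 21.2% called higher and a median of -0.0014 over all genes tested. Leaving aside 6 members that pass the filter only with the 1.0 mg/kg rats counted, 48 of 51 were higher and none lower. The list's summed level was 187 to 302 CPM in 3-methylfuran rats (median 242.5) and 75.1 to 151 CPM in control rats (median 105.1), with no overlap. Single members overlapped more often, and 26 of the 57 did not overlap. Mki67, the proliferation marker Ki-67, ran over 7.12 to 15.1 CPM (median 10.8) in 3-methylfuran rats and 0.266 to 5.59 CPM (median 3.17) in control rats (log2 fold change 1.83 ± 0.36, adjusted p = 0.00013). Among the members with the largest change were the outer kinetochore subunits Knl1 (2.62 ± 0.39, adjusted p = 1.1e-06), Nuf2 (2.17 ± 0.34) and Ndc80 (2.11 ± 0.35), and Anln, a scaffold of the cleavage furrow (2.12 ± 0.45). Levels were low: Nuf2 ran over 1.35 to 3.14 CPM (median 2.17) in 3-methylfuran rats and 0 to 1.04 CPM (median 0.498) in control rats. The most abundant member that was not called was Cks1b, a small subunit of cyclin-dependent kinases, with 14.8 to 19.2 CPM (median 17.5) and 15.2 to 23.2 CPM (median 19.1) (log2 fold change -0.14 ± 0.077, adjusted p = 0.15), though it was called lower without control rat MC503.

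Promoter sequence is shown for 4 mitosis genes, because many genes of this class carry a CCAAT box, bound by NF-Y, and a cell cycle homology region (CHR), bound by the MuvB complex. They are the called members with the largest change whose window of 250 bases before the start site holds both motifs, and they were chosen after their values were seen. Kif20b and Kif22 are spindle motors or chromosome-bound kinesins, Ckap2 is a spindle protein, and Top2a, topoisomerase II alpha, untangles sister chromatids. Sequences are from RefSeq on the GRCr8 build, 5′ to 3′ along the gene: Kif20b at chr1:241840766-241841015 on the plus strand, Ckap2 at chr16:76541864-76542113 on the plus strand, Top2a at chr10:84473094-84473343 on the minus strand and Kif22 at chr1:191080879-191081128 on the minus strand. Capitals mark CCAAT or its complement ATTGG, and TTTGAA or its complement TTCAAA.
Kif20b: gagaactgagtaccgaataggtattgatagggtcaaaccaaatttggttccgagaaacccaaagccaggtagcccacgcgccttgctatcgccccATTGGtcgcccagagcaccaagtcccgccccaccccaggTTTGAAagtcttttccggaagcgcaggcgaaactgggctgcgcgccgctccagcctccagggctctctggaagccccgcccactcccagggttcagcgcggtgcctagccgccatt
Ckap2: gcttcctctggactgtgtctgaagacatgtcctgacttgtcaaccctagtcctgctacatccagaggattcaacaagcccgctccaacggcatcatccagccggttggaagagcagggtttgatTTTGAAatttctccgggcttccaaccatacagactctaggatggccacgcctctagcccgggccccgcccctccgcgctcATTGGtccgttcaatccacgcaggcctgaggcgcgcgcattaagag
Top2a: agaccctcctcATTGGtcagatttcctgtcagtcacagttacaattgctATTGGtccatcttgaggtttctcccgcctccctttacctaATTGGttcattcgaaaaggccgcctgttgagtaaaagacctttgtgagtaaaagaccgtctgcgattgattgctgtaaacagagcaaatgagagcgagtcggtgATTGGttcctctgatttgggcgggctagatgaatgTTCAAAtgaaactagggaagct
Kif22: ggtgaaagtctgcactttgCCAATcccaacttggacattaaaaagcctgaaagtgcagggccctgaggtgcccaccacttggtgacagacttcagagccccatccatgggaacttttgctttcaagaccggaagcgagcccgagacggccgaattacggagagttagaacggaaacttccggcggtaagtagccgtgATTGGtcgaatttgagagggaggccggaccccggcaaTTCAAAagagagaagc

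The letters CCAAT, searched on both strands, were found in 35 of 49 mitosis genes with a promoter in the table (71.4%), against 36.3% of the 8769 tested genes with one. The letters TTTGAA were found in 26 of the 49 (53.1%), against 10.5% of tested genes. In 33 DNA replication promoters the shares were 54.5% for CCAAT and 3.0% for TTTGAA. The motifs do not overlap each other, a match is a description of letters and not a measured site, and no binding was measured here. Top2a ran over 9.91 to 18.4 CPM (median 13.9) in 3-methylfuran rats and 0.332 to 7.21 CPM (median 3.59) in control rats (log2 fold change 1.88 ± 0.34, adjusted p = 4.4e-05). Kif20b changed by 2.08 ± 0.21, Ckap2 by 2.03 ± 0.37 and Kif22 by 1.87 ± 0.33, and in each of the 4 genes every 3-methylfuran rat lay above every control rat.

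DNA replication genes changed in the same direction and less. Of 39 tested, 27 were called higher and none lower, with a median log2 fold change of 0.55. Uhrf1, which brings the maintenance DNA methyltransferase to replicated DNA, changed by 2.10 ± 0.36, Rrm2, the regulated subunit of ribonucleotide reductase, by 1.88 ± 0.36, and the replicative helicase subunits Mcm3 and Mcm6 by 1.70 ± 0.20 and 1.58 ± 0.24. Rrm2 ran over 5.13 to 11.6 CPM (median 7.71) in 3-methylfuran rats and 0.133 to 4.54 CPM (median 1.76) in control rats, with no overlap. Of 18 genes of the G1 phase, 7 were higher and 2 lower (50%, against 43.6% of all genes tested). Myc, a growth-promoting transcription factor, ran over 16.7 to 65.7 CPM (median 23.7) and 2.88 to 9.94 CPM (median 4.72) with no overlap (log2 fold change 2.38 ± 0.44, adjusted p = 6.9e-05). Ccne1, the cyclin that starts S phase, changed by 1.31 ± 0.25, and the brakes Rbl1 and Cdkn2b by 1.19 ± 0.18 and 1.16 ± 0.23. Cdkn1a, the p21 inhibitor and a target of p53, was not called (-0.27 ± 0.20, adjusted p = 0.27). Among 22 p53 targets 6 were higher and 6 lower (10 and 3 without the scaling factor), the increases including the death receptor Fas (1.30 ± 0.15) and Zmat3 (1.13 ± 0.19). Calls made up 54.5% of the p53 targets, against 43.6% of all genes tested.

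Genes of the protein synthesis machinery rose by small steps. Of 72 cytosolic ribosomal protein genes tested, 52 were called higher and none lower, with a median log2 fold change of 0.26, and 24 of them did not overlap. Their summed level was 10720 to 13460 CPM in 3-methylfuran rats and 8778 to 10230 CPM in control rats, with no overlap. Rpl3, a core protein of the large subunit, ran over 402 to 529.5 CPM (median 449) and 267 to 335 CPM (median 307) (log2 fold change 0.59 ± 0.056, adjusted p = 1.4e-10). Rpl12 changed by 0.54 ± 0.06, Rpl13a by 0.53 ± 0.094, and the paralog Rpl22l1 by 1.00 ± 0.14. Rpl10, whose control rat MC508 stood at 853 CPM with the other 15 rats between 406 and 521.1, was not called (adjusted p = 0.63). Ribosomal protein genes have many near-identical processed copies, and how the authors' counting treated reads that match several places is not given in the sources used here, so levels of single members are uncertain. Of 25 ribosome biogenesis genes 9 were called higher and none lower (36%, against 43.6% of all genes tested). They included the nucleolar proteins Ncl (0.51 ± 0.064) and Npm1 (0.44 ± 0.08).

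Most genes tested for secreted liver proteins were lower. Of 16 acute phase genes tested 15 were called lower and none higher, with a median log2 fold change of -0.39. Apcs, serum amyloid P component, ran over 308 to 563 CPM (median 389) in 3-methylfuran rats and 671 to 808 CPM (median 725) in control rats (log2 fold change -0.86 ± 0.092, adjusted p = 2.5e-09), and Mug1, an abundant rat plasma proteinase inhibitor, over 5531 to 9373 CPM (median 7195) and 13547 to 16836 CPM (median 14273) (-1.01 ± 0.085, adjusted p = 1.3e-11). Both groups stayed apart in each gene. Itih1, a hyaluronan-linked plasma protein outside that list, had 886 to 1169 CPM (median 1079) and 1588 to 2075 CPM (median 1846) and the same lack of overlap (-0.83 ± 0.057, adjusted p = 3.4e-13), and its relative Itih3 changed by -0.68 ± 0.063. Without the scaling factor 6 of the 16 acute phase genes were called lower and none higher.

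Of 22 coagulation genes 17 were lower and 1 higher (median -0.35), and of 22 complement genes 16 were lower and none higher (median -0.38). The anticoagulant protease precursor Proc changed by -0.80 ± 0.066, coagulation factors F12 and F10 by -0.80 ± 0.07 and -0.63 ± 0.056, and Serpinc1, antithrombin, by -0.58 ± 0.05, each with no overlap between groups. Fgg, the fibrinogen gamma chain, was the most abundant coagulation gene not called (3592 to 5036 CPM (median 4051) in 3-methylfuran rats and 4135 to 5753 CPM (median 4876) in control rats, adjusted p = 0.058), and it was called lower when any of 4 single rats was left out. In the complement list C4b changed by -0.87 ± 0.12, the C3b-cleaving protease Cfi by -0.79 ± 0.074, the lectin pathway protease Masp1 by -0.77 ± 0.079 and mannose-binding lectin Mbl2 by -0.67 ± 0.075. Without the scaling factor 10 coagulation genes were lower and 3 higher, and 9 complement genes were lower and 2 higher. Alb and Ttr, the carriers albumin and transthyretin, had log2 fold changes of -0.26 ± 0.063 and -0.20 ± 0.065, and that of Ttr turned to 0.047 without the scaling factor. Hamp, the iron-regulating hormone hepcidin, ran over 144 to 475 CPM (median 183) in 3-methylfuran rats and 346 to 731 CPM (median 453) in control rats (log2 fold change -1.14 ± 0.27, adjusted p = 0.0012), with rat ME587 at 475 CPM inside the control range.

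Apolipoproteins split in direction. Of 19 genes of apolipoproteins and lipoprotein assembly, 14 were lower and 2 higher, with a median of -0.59 (12 lower and 3 higher without the scaling factor). Apoa4, which is carried on chylomicrons and high-density lipoprotein, ran over 259.8 to 594 CPM (median 515) in 3-methylfuran rats and 1063 to 1543 CPM (median 1320.2) in control rats (log2 fold change -1.50 ± 0.13, adjusted p = 2.8e-11). Apoa1, the main protein of high-density lipoprotein, lies beside Apoa4 in the genome of rodents and moved the other way, with 2436 to 3496 CPM (median 2981) and 984 to 1759 CPM (median 1331) (1.13 ± 0.13, adjusted p = 1.3e-08). Neither gene's groups overlapped. Apoc1, an inhibitor of lipoprotein uptake, changed by -0.96 ± 0.069, and the lipoprotein lipase inhibitors Angptl4 and Angptl8 by -1.49 ± 0.28 and -1.49 ± 0.29. Apob, the structural protein of very low density lipoprotein, was not called (-0.075 ± 0.081, adjusted p = 0.48), and without the scaling factor it was called higher at 0.17.

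Many enzymes of fat and glucose handling were lower too. Of 15 fatty acid synthesis genes, 7 were lower and none higher (median -0.41). The share called was 46.7%, against 43.6% of all genes tested. Fasn, fatty acid synthase, ran over 249 to 523 CPM (median 372) in 3-methylfuran rats and 434 to 2780.2 CPM (median 880.2) in control rats (log2 fold change -1.74 ± 0.43, adjusted p = 0.0015), and Scd, stearoyl-CoA desaturase, over 118 to 1823 CPM (median 1096) and 1057 to 8799 CPM (median 3158) (-1.73 ± 0.47, adjusted p = 0.0034). Control rats spread widely in both genes and overlapped the treated rats. Acaca, which makes malonyl-CoA, and the lipogenic regulator Thrsp changed by -0.85 ± 0.19 and -1.24 ± 0.25 with no overlap. Of 17 glucose and glycogen genes, 12 were lower and 3 higher (median -0.53). G6pc, which releases glucose from glucose 6-phosphate, ran over 128 to 348 CPM (median 241) in 3-methylfuran rats and 371 to 811 CPM (median 514) in control rats (-1.30 ± 0.32, adjusted p = 0.0017), and Ppp1r3b, which targets a phosphatase to glycogen, over 172 to 221 CPM (median 188) and 312 to 501 CPM (median 435) (-1.14 ± 0.12, adjusted p = 1.7e-09). In both genes every 3-methylfuran rat lay below every control rat. Pck1, the gate enzyme of gluconeogenesis, changed by -0.92 ± 0.20. Among 25 genes of fatty acid oxidation and ketogenesis 14 were lower and 2 higher, and among 21 of the urea cycle and amino acid catabolism 13 were lower and none higher; the medians of both lists, -0.20 and -0.23, turned positive without the scaling factor. Gpt, alanine aminotransferase, changed by -1.42 ± 0.14, Ass1, argininosuccinate synthase, by -0.63 ± 0.17, and Cps1, the abundant entry enzyme of the urea cycle, was not called (-0.20 ± 0.10, adjusted p = 0.11).

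Most cytochrome P450 genes were lower, with exceptions of large size. Of 39 tested in families 1 to 4, 24 were lower and 7 higher, with a median of -0.36 (14 lower and 9 higher without the scaling factor), and their summed level was 12710 to 15850 CPM in 3-methylfuran rats and 17510 to 22140 CPM in control rats, with no overlap. Cyp2e1, the enzyme known to activate furan, was higher and not lower: it ran over 2626 to 3570.3 CPM (median 3007) and 1738 to 2691 CPM (median 2155) with overlap (log2 fold change 0.48 ± 0.13, adjusted p = 0.0039). Cyp2d1 ran over 403 to 611 CPM (median 525.3) and 896 to 1221 CPM (median 1089.8) with none. Cyp3a18 and Cyp1a2 changed by -1.31 ± 0.13 and -1.29 ± 0.19, and Cyp4f4, a fatty acid hydroxylase, by -0.93 ± 0.067. Among the increases, Cyp3a62 changed by 1.67 ± 0.18 and Cyp2c24 by 2.91 ± 0.41, the last becoming 3.80 without control rat MC502. Reads of close Cyp2c and Cyp3a paralogs may be shared, so levels of single members are uncertain.

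The sex-specific Cyp2c pair of rat liver moved in opposite directions in these male rats. Cyp2c12, a steroid hydroxylase known as female-predominant in adult rats, ran over 58.3 to 135 CPM (median 98.1) in 3-methylfuran rats and 9.42 to 18.5 CPM (median 13.8) in control rats (log2 fold change 2.78 ± 0.17, adjusted p = 3.4e-13), with no overlap. Cyp2c11, its male-predominant counterpart, ran over 689.6 to 1251 CPM (median 1042) and 1099.9 to 2402 CPM (median 2121) (-0.98 ± 0.14, adjusted p = 9.8e-07), with control rat MC508 inside the treated range. Slco1a1, an organic anion uptake carrier that is also male-predominant in rodents, changed by -0.91 ± 0.11; Cyp2c11 and Slco1a1 were singled out after their values were seen. Prlr, the prolactin receptor, which is higher in livers of female rats, ran over 13 to 59.6 CPM (median 31.5) and 0.84 to 28.5 CPM (median 5.9) (2.02 ± 0.54, adjusted p = 0.003). Of 20 genes of the growth hormone and IGF axis, which sets these sex differences in rats, 4 were higher and 7 lower. Calls made up 55% of that list, against 43.6% of all genes tested. Igfbp2, an IGF-binding protein, changed by 1.47 ± 0.26, and the abundant signalling factor Stat3 was not called (-0.047 ± 0.12, adjusted p = 0.78).

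Of 19 transporters of bile acids and conjugates tested, 9 were higher and 9 lower. The 9 that rose included 7 ABC pumps and the 9 that fell included 7 carriers of the Slc10, Slco and Slc22 uptake families, but Abcb11, the bile salt export pump, also fell (-0.42 ± 0.10; named after its value was seen). Abcc3, which sends conjugates from hepatocytes to blood, ran over 16.7 to 69 CPM (median 26.2) in 3-methylfuran rats and 2.23 to 11 CPM (median 3.06) in control rats (log2 fold change 2.69 ± 0.42, adjusted p = 6.3e-06). The pump Abcg2 changed by 1.13 ± 0.16 with no overlap, and the sterol exporters Abcg5 and Abcg8 by 1.71 ± 0.43 and 1.74 ± 0.56, the last becoming 2.73 without control rat MC502. Of 15 genes of bile acid synthesis and feedback 10 were lower and none higher (median -0.40; 7 lower and 1 higher without the scaling factor). They included the bile acid CoA ligase Slc27a5 (-1.12 ± 0.13), the conjugating enzyme Baat (-0.59 ± 0.078) and the repressor Nr0b2 (-1.15 ± 0.29), each with no overlap. Cyp7a1, the rate-limiting enzyme of bile acid synthesis, was not called (26.9 to 142 CPM (median 54.8) and 24.3 to 86.8 CPM (median 60), adjusted p = 0.64).

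Among enzymes that handle thiols, aldehydes and conjugates some genes were higher and others lower. Of 21 glutathione S-transferases 4 were higher and 5 lower, a share called of 42.9% against 43.6% of all genes tested, and without the scaling factor 9 were higher and 2 lower. Gstm1, the most abundant member named, ran over 1719.5 to 3854 CPM (median 2179) in 3-methylfuran rats and 898 to 2279 CPM (median 1313) in control rats (log2 fold change 0.72 ± 0.19, adjusted p = 0.0025), and Gstm2 over 544 to 965 CPM (median 708) and 1023 to 1634 CPM (median 1339.6) (-0.86 ± 0.094, adjusted p = 3.4e-09), so close relatives moved apart. Rat ME587, the highest for Gstp1, was also the highest 3-methylfuran rat for Gstm1, at 3854 CPM. Gsta1 was not called (0.16 ± 0.15, adjusted p = 0.39). The Gstp1 promoter carries the antioxidant response element core TGACNNNGC, marked in capitals, starting 61 bases before the start site at chr1:210769706-210769955 on the minus strand of GRCr8.
Gstp1: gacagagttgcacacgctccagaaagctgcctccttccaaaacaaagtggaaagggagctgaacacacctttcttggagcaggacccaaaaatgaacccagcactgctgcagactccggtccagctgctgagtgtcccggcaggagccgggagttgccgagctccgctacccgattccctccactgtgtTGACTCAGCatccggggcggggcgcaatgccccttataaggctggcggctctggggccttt

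Of 17 promoters of tested glutathione S-transferases 3 (17.6%) held this core on either strand, against 12.6% of promoters of tested genes. It was in 4 of 18 promoters of glutathione synthesis and thiol redox genes. None of 15 promoters of aldehyde, ketone and epoxide enzymes held it. Of 20 genes of glutathione synthesis and thiol redox 9 were higher and 5 lower; Gclc, the catalytic subunit of the first enzyme of glutathione synthesis, changed by 0.58 ± 0.19 (adjusted p = 0.015). Of 21 aldehyde, ketone and epoxide enzymes 10 were higher and 4 lower (15 and 2 without the scaling factor). Aldh1a1, a retinal dehydrogenase, ran over 597 to 727 CPM (median 699) and 158 to 390.3 CPM (median 242) (log2 fold change 1.33 ± 0.23, adjusted p = 2.3e-05), and Aldh1b1, a mitochondrial aldehyde dehydrogenase, over 30.3 to 56.4 CPM (median 41.1) and 9.51 to 26.3 CPM (median 13.9) (1.46 ± 0.17, adjusted p = 5.1e-08), both with no overlap. Akr7a3, an aflatoxin aldehyde reductase, ran over 282 to 1239.8 CPM (median 515) and 23.9 to 322 CPM (median 66) with overlap (2.51 ± 0.50, adjusted p = 0.00018). Of 7 glucuronidation genes 3 were higher and none lower (42.9%, against 43.6% of all genes tested). Of 17 enzymes of sulfation, methylation and acetylation 7 were lower and 3 higher, among them Sult1c3 (-1.41 ± 0.11) and As3mt (-0.88 ± 0.071), beside Inmt above. Calls made up 58.8% of that list, against 43.6% of all genes tested.

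The serine and one-carbon lists were called about as often as all genes or more. Of 12 genes of serine and glycine synthesis 2 were higher and 3 lower (41.7%, against 43.6% of all genes tested), and without the scaling factor 4 were higher and none lower. Psat1, the second enzyme of serine synthesis, ran over 6.22 to 28.6 CPM (median 13.8) in 3-methylfuran rats and 2.66 to 9.89 CPM (median 4.12) in control rats (log2 fold change 1.53 ± 0.34, adjusted p = 0.00048), and Shmt2, which splits serine in mitochondria, was not called (0.12 ± 0.058, adjusted p = 0.1) except, as higher, without 3-methylfuran rat ME590. Of 21 folate and methyl-group genes 4 were higher and 10 lower (8 higher and 5 lower without the scaling factor). The mitochondrial enzymes Mthfd1l and Mthfd2 changed by 2.68 ± 0.34 and 1.54 ± 0.32, whereas Cbs, which draws homocysteine into cysteine synthesis, changed by -0.78 ± 0.077. Asns, asparagine synthetase, is like Phgdh and Psat1 a known target of Atf4 and changed by 1.52 ± 0.28. Of 20 genes of the Atf4 and unfolded protein response, which include endoplasmic reticulum chaperones, 14 were lower and 2 higher (median -0.43). Without the scaling factor 8 were lower and 2 higher. The part of Atf4 in these values was not tested. Atf4 RNA itself was not called (132 to 171 CPM (median 141) and 132 to 191 CPM (median 148), adjusted p = 0.52), while Atf5 changed by -0.96 ± 0.088 and the endoplasmic reticulum proteins led by Sdf2l1 by -1.09 ± 0.10. Of 13 heat shock genes 7 were higher and 2 lower, with the mitochondrial chaperonin Hspd1 at 0.59 ± 0.059 and the co-chaperone Bag3 at -0.75 ± 0.091.

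Hepatocyte regulators were mostly lower or not called. Of 16 hepatocyte transcription factors 10 were not called, 5 were lower and 1 higher (37.5%, against 43.6% of all genes tested; median -0.14), and without the scaling factor 5 were higher and 3 lower with a median of 0.11. Of 21 nuclear receptors and xenosensors 13 were lower and 3 higher (median -0.27; 7 lower and 5 higher without the scaling factor). Ppard, a fatty acid receptor, ran over 11.2 to 24.6 CPM (median 18.4) in 3-methylfuran rats and 36.3 to 72.8 CPM (median 56.8) in control rats (log2 fold change -1.65 ± 0.18, adjusted p = 1.1e-08), and its relative Pparg changed by -1.33 ± 0.29. Of the transcription factors that were called, Cebpa and Cebpb, which maintain hepatocyte genes, changed by -0.59 ± 0.10 and -0.88 ± 0.21, and Tbx3, a pericentral factor, by -1.21 ± 0.24. The Wnt inhibitor Notum, also pericentral, changed by -1.50 ± 0.15 with no overlap. Of 18 clock genes 4 were higher and 8 lower (7 and 6 without the scaling factor). Per3 ran over 4.33 to 9.86 CPM (median 7.62) and 0.759 to 2.16 CPM (median 1.41) (2.35 ± 0.20, adjusted p = 2.8e-11), Dbp, a clock output factor, changed by 1.57 ± 0.16 and Nr1d1, the repressor REV-ERB alpha, by 1.93 ± 0.34, while Usp2, a deubiquitinase under clock control, changed by -1.35 ± 0.18. Clock itself was not called (adjusted p = 0.39). No time of day of sampling is given in the sources used here, and its part in these values was not tested.

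Hepatocyte keratins and most of the tested oncofetal and altered hepatocyte markers rose. Krt8 and Krt18, the keratin pair of hepatocytes and bile duct cells, ran over 259 to 402 CPM (median 353) and 329 to 545.5 CPM (median 436) in 3-methylfuran rats and 111 to 161 CPM (median 139) and 148 to 201 CPM (median 165) in control rats, with no overlap (log2 fold changes 1.31 ± 0.083 and 1.35 ± 0.10, adjusted p = 1e-13 and 1.1e-12). Of 14 oncofetal and altered hepatocyte markers 9 passed the filter on low counts. Of these 9, 7 were higher and none lower (median 1.08). Besides Gstp1 they included the adhesion proteins Epcam (17.8 to 26 CPM (median 20.2) against 4.17 to 8.21 CPM (median 6.19); 1.69 ± 0.12) and Cd24 (1.81 ± 0.19), and the fetal gene Mest (1.08 ± 0.17), each with no overlap. Gpc3, an oncofetal proteoglycan, was not called (0.23 ± 0.46, adjusted p = 0.72). Epcam is also counted among the bile duct cell markers below.

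Markers of stellate cells and macrophages were mostly not called, and those of bile duct cells were called about as often as all genes tested. Few markers of other immune cells passed the filter on low counts: 5 of 11 for T and NK cells, 1 of 7 for B and plasma cells and 1 of 6 for neutrophils. Of 9 cholangiocyte markers tested 3 were higher, namely Epcam, Cldn7 (1.46 ± 0.21) and Anxa13 (1.02 ± 0.24), and 1 lower. That was 44.4%, against 43.6% of all genes tested. Their summed level was 91.6 to 119 CPM in 3-methylfuran rats and 87.4 to 101 CPM in control rats. The defining duct keratins did not rise: Krt19 ran over 0.268 to 0.975 CPM (median 0.564) and 0.389 to 1.49 CPM (median 0.842) and was not called (adjusted p = 0.21), and Krt7 ran over 0.0533 to 0.705 CPM (median 0.201) and 0.278 to 1.27 CPM (median 0.605) and was called lower (adjusted p = 0.028), a call lost when any of 5 single rats was left out. Of 23 collagens 2 were higher and 3 lower, with a median of -0.008, and of 30 other matrix genes 6 were higher and 8 lower. The shares called were 21.7% and 46.7%. Leaving aside members that pass the filter only with the 1.0 mg/kg rats counted, 1 of 22 collagens and 5 of 28 other matrix genes were higher. Without the scaling factor 9 collagens were higher and none lower, with a median of 0.24, and 12 other matrix genes were higher and 4 lower. Col3a1, a fibrillar collagen of scar tissue, was not called (75.2 to 128 CPM (median 103) and 87.5 to 107 CPM (median 96.1), adjusted p = 0.56), nor was Sparc (adjusted p = 0.99; called higher at 0.25 without the scaling factor). The matrix genes that rose most after Mmp12 included Lama5, a laminin of epithelial basement membranes, by 1.98 ± 0.27, and Col20a1 and Col11a2, by 2.04 ± 0.28 and 1.58 ± 0.27 from under 1 CPM in control rats. Of 13 stellate cell markers none was higher and 1 lower (Colec11, -0.44 ± 0.074), of 12 macrophage markers 1 higher (Gpnmb, 1.10 ± 0.18) and none lower, of 14 sinusoidal endothelial markers none higher and 2 lower (the larger change in Clec4g, -0.65 ± 0.19), and of 5 T and NK cell markers 1 higher (Cd8a, 0.68 ± 0.28, a call lost when any of 8 single rats was left out) and none lower. Cldn7, Anxa13, Colec11, Gpnmb and Cd8a are named because they made up those counts, after their values were seen. Without the scaling factor 5 stellate cell markers were higher and 1 lower, with a median of 0.11 in place of -0.14, and 5 cholangiocyte, 3 macrophage and 2 sinusoidal endothelial markers were higher and none lower. The defining members Lrat, Cd68 and Lyve1 had adjusted p of 0.31, 0.7 and 0.82. The part of cell composition in the changes above was not tested. Of 25 interferon response genes 4 were higher and 7 lower (9 and 5 without the scaling factor). The share called was 44%, against 43.6% of all genes tested. Among them the class II antigens RT1-Da (0.72 ± 0.15) and RT1-Ba (0.65 ± 0.14) were higher. The antiviral Oas1a (-1.16 ± 0.14) and Oasl (-1.14 ± 0.17) were lower.

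The lower doses of 3-methylfuran moved few genes. At 0.02 mg/kg 4 of 11930 genes were called (0.0335%) and at 0.075 mg/kg 163 (1.37%), of which 52 (0.436%) were higher and 111 (0.93%) lower; each dose shares the 8 control rats. Set directly against 0.075 mg/kg, 1.0 mg/kg gave 4166 calls (34.9%), 2014 higher (16.9%) and 2152 lower (18%). Of the 57 mitosis genes none was called at 0.02 mg/kg, 1 at 0.075 mg/kg and 55, all higher, in 1.0 against 0.075 mg/kg. Among the 57 are the 6 that pass the filter only with the 1.0 mg/kg rats counted. Those 6 were tested only because they were high there. The log2 fold change of Phgdh was 0.054 at 0.02 mg/kg (adjusted p = 0.99), 0.75 at 0.075 mg/kg (adjusted p = 0.56) and 4.93 at 1.0 mg/kg, and 1.0 exceeded 0.075 mg/kg by 4.19 ± 0.37 (adjusted p = 7e-10). Gstp1 exceeded its 0.075 mg/kg level by 3.57 ± 0.57, Mki67 by 1.65 ± 0.34 and Krt8 by 1.17 ± 0.083. The smallest adjusted p among increases over 0.075 mg/kg were those of Tusc3, Ica1, Krt8 and the kinesin Kif12 (2.20 ± 0.16, adjusted p = 1.5e-12), and among decreases those of Cpq and Prcp, a lysosomal carboxypeptidase (-0.76 ± 0.059, adjusted p = 5e-12).

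A smaller set had already changed at 0.075 mg/kg; these genes were picked out after their values were seen. Usp2 had a log2 fold change of -0.73 at 0.02 mg/kg (adjusted p = 0.19), -1.88 at 0.075 mg/kg (adjusted p = 2e-07) and -1.35 at 1.0 mg/kg, so its level at 1.0 mg/kg was above that at 0.075 mg/kg (difference 0.54 ± 0.19, adjusted p = 0.027). Magi3, a scaffold protein of cell junctions, had log2 fold changes of 0.31, 0.80 (adjusted p = 8.2e-07) and 0.77 at the 3 doses, and Zbtb16, a glucocorticoid-responsive transcription factor, had -1.47, -2.24 (adjusted p = 0.016) and -2.18. For both genes 1.0 and 0.075 mg/kg did not differ by the test (difference -0.031 ± 0.085 for Magi3 and 0.052 ± 0.52 for Zbtb16, 95% intervals -0.20 to 0.14 and -1.02 to 1.13). Nr1d1 changed by 1.48 at 0.075 mg/kg (adjusted p = 0.02) and Ppp1r3b by -0.65 (adjusted p = 0.0015). Ppp1r3b fell further, with a difference of -0.49 ± 0.11 in 1.0 against 0.075 mg/kg (adjusted p = 0.001), while for Nr1d1 that difference was not called (adjusted p = 0.28).

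**Figure D3:**
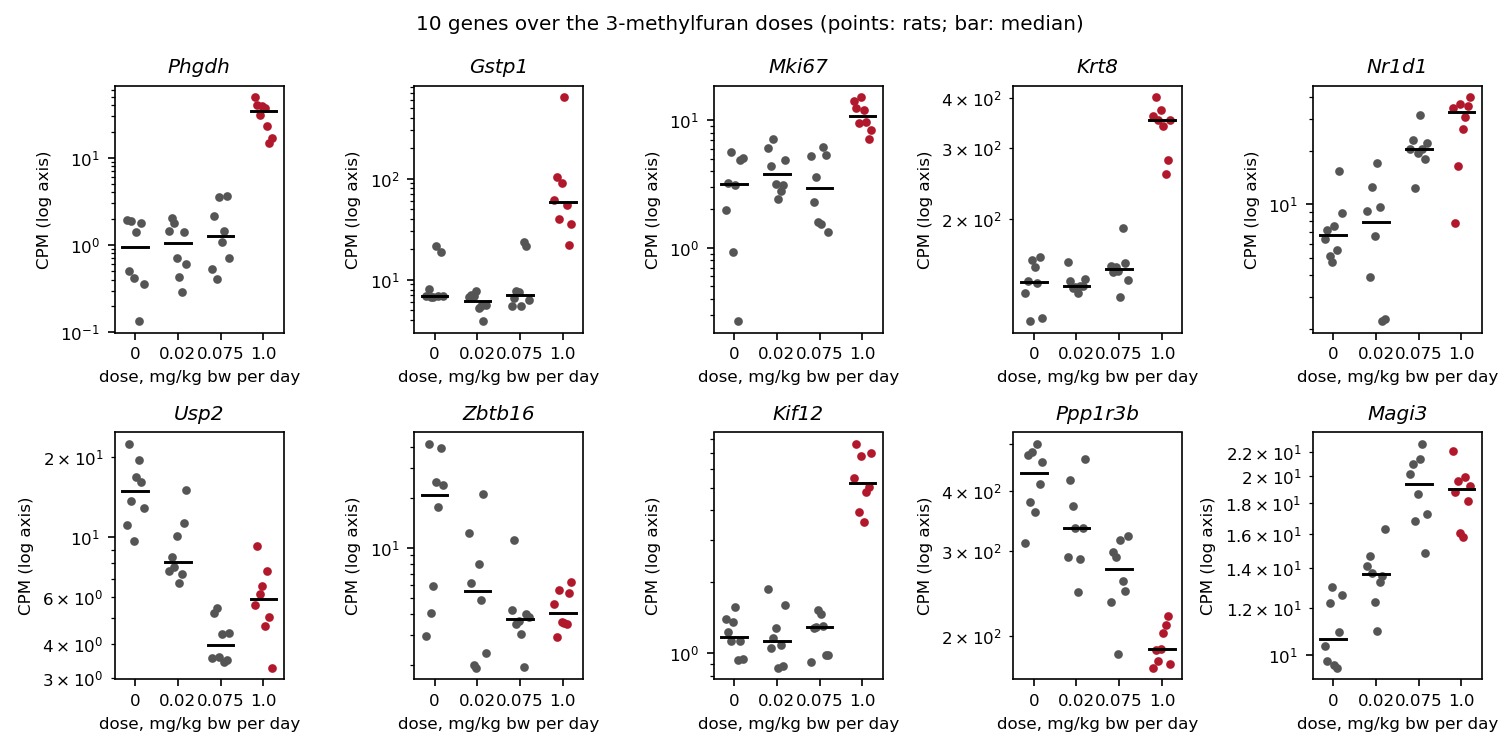
CPM of each rat on a log axis for 10 genes at 0, 0.02, 0.075 and 1.0 mg/kg of 3-methylfuran, 8 rats per dose, with a bar at each median. In Phgdh and Krt8 every rat at 1.0 mg/kg lies above every rat at a lower dose, whereas Usp2, Magi3 and Zbtb16 had already moved at 0.075 mg/kg.

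Furan was given at 0.03, 0.12, 0.5 and 2.0 mg/kg, so no dose matches 1.0 mg/kg of 3-methylfuran. The values that follow, for furan at 0.5 and 2.0 mg/kg, are set side by side at unequal doses. The experiments also differed in library kit, so compound, dose, experiment and kit cannot be told apart. The effect of 3-methylfuran at 1.0 mg/kg, each dose taken over its own controls, differed from that of furan at 2.0 mg/kg in 936 of 12941 genes (7.23%), 481 of them (3.72%) with the higher value and 455 (3.52%) with the lower value for 3-methylfuran. It differed from that of furan at 0.5 mg/kg in 2774 genes (21.4%), 1370 (10.6%) with the higher and 1404 (10.8%) with the lower value for 3-methylfuran. These were the only 2 pairs of compound effects compared.

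The effects on Phgdh and Gstp1 differed from furan at 0.5 mg/kg and were not called different from furan at 2.0 mg/kg. Phgdh had log2 fold changes of 4.93 with 3-methylfuran, 1.43 with 0.5 mg/kg furan and 4.23 with 2.0 mg/kg furan. The difference was 3.51 ± 0.90 from 0.5 mg/kg (adjusted p = 0.0033) and 0.71 ± 0.88 from 2.0 mg/kg, with a 95% interval of -1.06 to 2.48. Gstp1 had log2 fold changes of 3.68, 0.53 and 3.46, with a difference of 3.16 ± 0.63 from 0.5 mg/kg (adjusted p = 0.00016) and an interval of -0.98 to 1.45 for the difference from 2.0 mg/kg. For Mki67 the effects were 1.83, 0.63 and 1.89, and neither difference was called (intervals 0.21 to 2.23 from 0.5 mg/kg and -1.05 to 0.96 from 2.0 mg/kg). Cyp2e1 had log2 fold changes of 0.48, 0.042 and -0.071, again with neither difference called (intervals 0.015 to 0.87 and 0.13 to 0.99). The genes with the smallest adjusted p for a larger effect than 0.5 mg/kg furan included Tmem106a (difference 1.57 ± 0.19), Car2 (2.32 ± 0.31), Filip1l (1.59 ± 0.20) and the DNA end-binding subunit Xrcc5 (0.78 ± 0.10), with Usp54 (0.96 ± 0.13) and the mitochondrial channel Vdac2 (0.51 ± 0.062). On the other side stood Serpina4 (-0.94 ± 0.12), the collagen hydroxylase P4ha2 (-0.94 ± 0.10), Ankrd33b (-2.36 ± 0.29), the interleukin-6 receptor Il6r (-1.81 ± 0.23), the xenosensor Nr1i2, known as PXR (-1.06 ± 0.13), and Pfkfb1 (-1.72 ± 0.22).

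Some genes moved in opposite directions with 3-methylfuran and 2.0 mg/kg furan. Zbtb16 changed by -2.18 ± 0.50 with 3-methylfuran and 2.60 ± 0.52 with furan, a difference of -4.78 ± 0.75 (adjusted p = 2.7e-05). Adamtsl2, a matrix glycoprotein, changed by -0.83 ± 0.16 and 1.75 ± 0.26 (difference -2.57 ± 0.38, adjusted p = 8.4e-06), Epha2, an ephrin receptor, by -1.41 ± 0.14 with 3-methylfuran, against a value of 0.48 ± 0.22 with furan that was not called (adjusted p = 0.07; difference -1.88 ± 0.31, adjusted p = 9.2e-05), and Klf13 by -1.16 ± 0.22 and 0.77 ± 0.19 (difference -1.92 ± 0.28, adjusted p = 8.4e-06). Fmo2, a flavin monooxygenase, and Pfkfb1, the bifunctional enzyme that sets fructose 2,6-bisphosphate, differed by -1.76 ± 0.31 and -1.26 ± 0.22. With the higher value for 3-methylfuran stood Mest (difference 1.58 ± 0.25), Magi3 (1.13 ± 0.16), Spata13 (0.88 ± 0.14), the poly(A) polymerase Tent2 (0.87 ± 0.13), Dennd4a (0.77 ± 0.11) and the histone demethylase Kdm6a (0.61 ± 0.10), all with an adjusted p of at most 2.5e-05. Of other genes described above and singled out after their values were seen, Myc had log2 fold changes of 2.38 with 3-methylfuran and -0.76 with 2.0 mg/kg furan (difference 3.15 ± 0.66, adjusted p = 0.0015), and Cyp2c12 had 2.78 and 0.59 (difference 2.21 ± 0.51, adjusted p = 0.0037). Fgf21, a stress hormone of the liver, had log2 fold changes of -1.21 with 3-methylfuran and 1.36 with furan (difference -2.56 ± 0.51, adjusted p = 0.001).

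**Figure D4:**
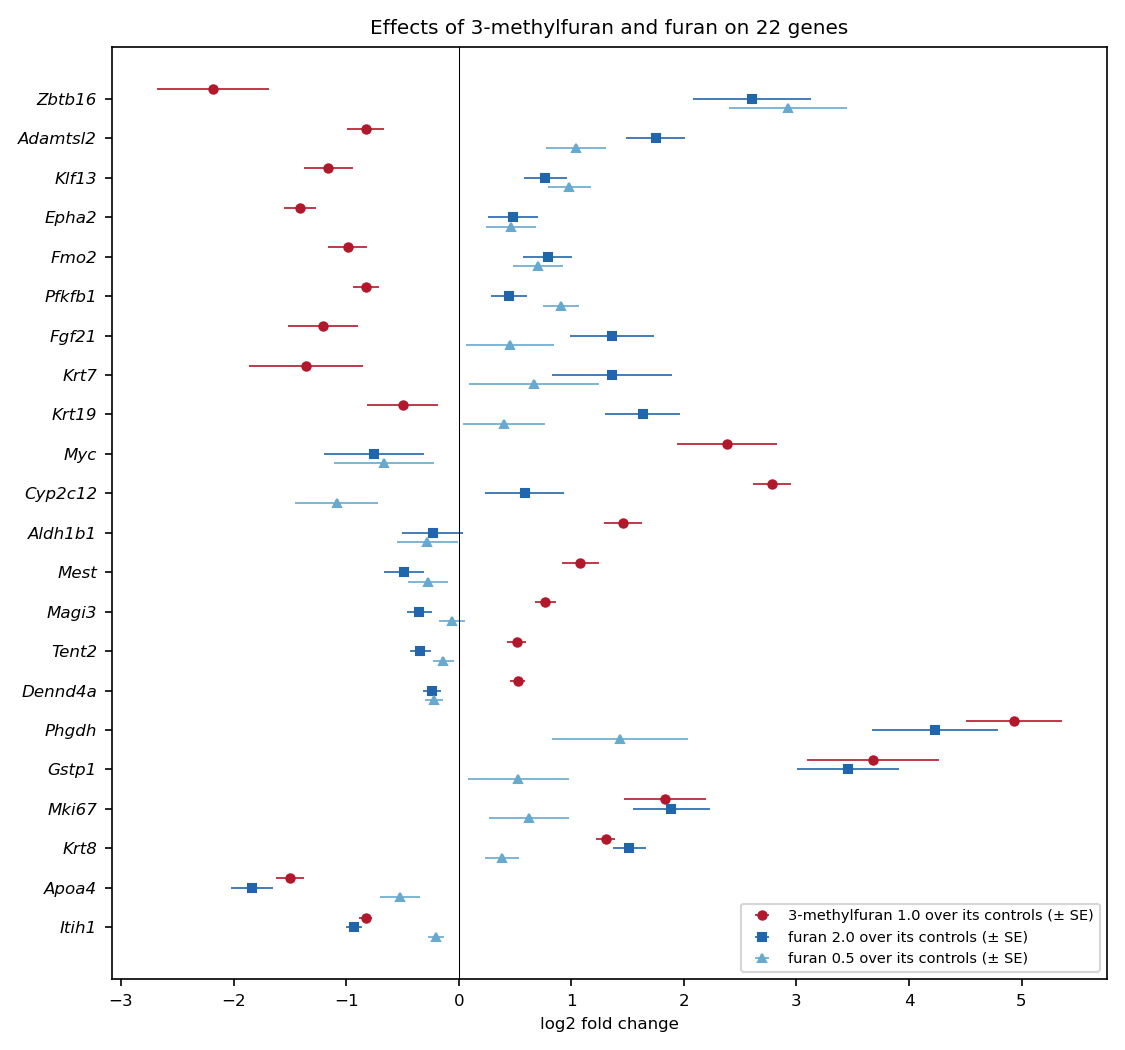
Log2 fold change ± SE of 22 genes for 3-methylfuran 1.0 mg/kg, furan 2.0 mg/kg and furan 0.5 mg/kg, each over the controls of its own experiment. Phgdh and Gstp1 lie close together for the first pair, and Zbtb16, Adamtsl2 and Epha2 lie on opposite sides of 0.

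Several gene lists held a larger share of differences between 3-methylfuran and 2.0 mg/kg furan than the 7.23% of all genes. Of 9 oncofetal and altered hepatocyte markers 4 differences were called (44.4%), 1 with the higher and 3 with the lower value for 3-methylfuran, and the median difference was -0.90. Of 16 hepatocyte transcription factors 5 were called (31.2%) and of 10 hepatocyte markers 3 (30%), all with the higher value for 3-methylfuran, and of 25 cytoskeleton genes 6 (24%), all with the lower value. Of 23 collagens 2 were higher and 3 lower with 3-methylfuran, against 12 higher and 1 lower with 2.0 mg/kg furan (25.1% and 22.6% of all genes, 47.7% in all), and the medians were -0.008 and 0.41; the difference itself was called in 5 genes, 1 with the higher and 4 with the lower value for 3-methylfuran. In 30 other matrix genes 10 differences were called, 9 of them with the lower value for 3-methylfuran (median difference -0.60), and in 9 cholangiocyte markers 4, all with the lower value (median difference -0.72). Krt19 had log2 fold changes of -0.50 with 3-methylfuran and 1.64 with 2.0 mg/kg furan (difference -2.13 ± 0.53, adjusted p = 0.0074). Of the 57 mitosis genes no difference from 2.0 mg/kg furan was called. From 0.5 mg/kg furan 20 of them differed, 19 with the higher value for 3-methylfuran. These 57 include the 6 that pass the filter of the 3-methylfuran experiment only with its 1.0 mg/kg rats counted. Ribosomal protein genes differed in none of 72 from 2.0 mg/kg and in 43, all higher for 3-methylfuran, from 0.5 mg/kg. Of 22 complement genes 6 differed from 2.0 mg/kg furan, all with the higher value for 3-methylfuran; 19 were lower with furan and 16 with 3-methylfuran over their own controls.

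**Figure D5:**
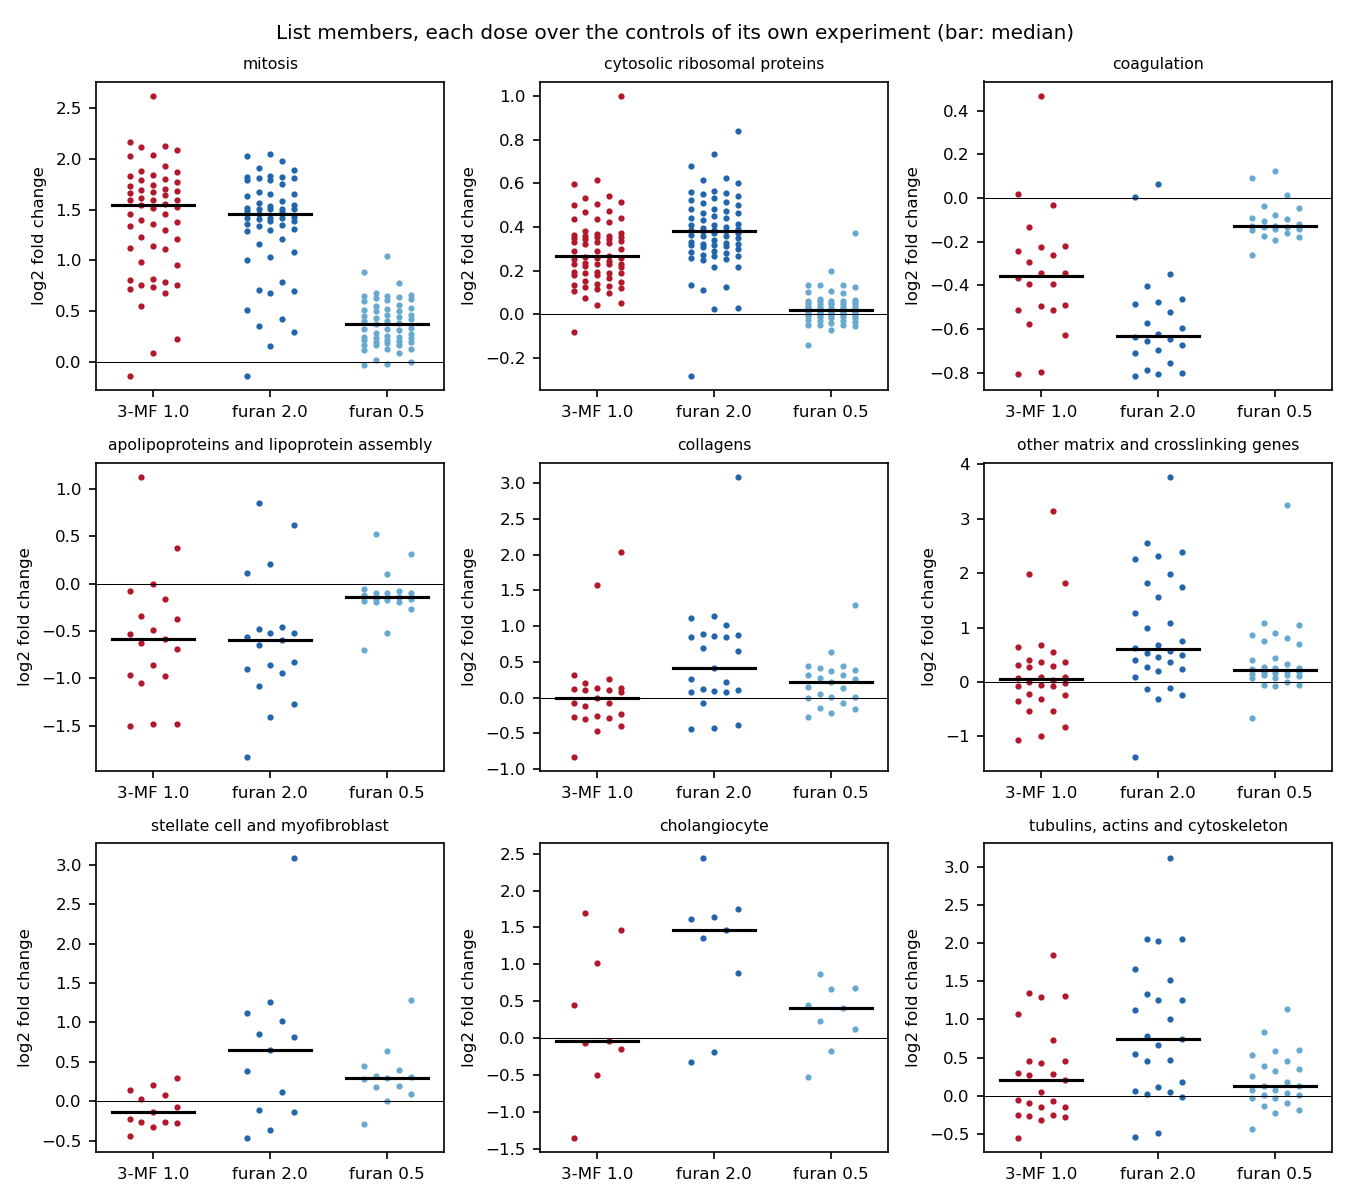
Log2 fold change of each member (points) of 9 gene lists for 3-methylfuran (3-MF) 1.0 mg/kg, furan 2.0 mg/kg and furan 0.5 mg/kg over their own controls, with a bar at each median. Collagens have medians of -0.008 and 0.41 for the first pair, and mitosis genes 1.55 and 1.45.

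In the authors' deposited table, 5522 of 18604 genes had an adjusted p under 0.05 at 1.0 mg/kg of 3-methylfuran, 2809 higher and 2713 lower. Of the 11930 genes tested here and present in the authors' deposited table, 5053 were called in both in the same direction, none in opposite directions, 154 here only and 17 in the authors' deposited table only.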

How the data were processed

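Read counts per gene and sequencing run were deposited by the authors. Tools and build, per the submitters' processing notes, were Rnor 6.0, featureCounts 2.0.0, STAR 2.7.1a and DESeq2 1.26.0. No annotation release, strand setting or treatment of reads with several matches is given in the sources used here. In turn the deposited comparison tables hold a ratio (3-methylfuran) or a signed fold, another scale (furan, not used here), and adjusted p-values, all by the authors. Array data were not analysed here. Columns were matched to rats by the numbers in their titles. The 3 runs of a rat were summed (2 for furan): runs of 1 rat differed by a chi-square of 1.0 to 1.04 per degree of freedom, and pairs of rats in a group by 6.82 or more. Names came from the tables, with 19777 of 32883 gene IDs paired with a symbol.

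Counts were tested with edgeR 4.0.16 in R 4.3.3: filterByExpr on dose groups (minimum count 10), TMM factors, a robust quasi-likelihood fit over the 32 rats of the 3-methylfuran experiment and Benjamini-Hochberg adjustment over all genes tested. Differences between compound effects came from one fit over all 70 rats. Groups were taken from the labels, with no other covariate. A call is an adjusted p under 0.05. SE is the log2 fold change divided by the square root of F, and 95% intervals use the t distribution. CPM values are shown per rat as a range and median of 8. The fit was tested on simulated data for 3-methylfuran 1.0 mg/kg against control (11849 genes). There it called 77% of genes changed by 0.585 and 90% of genes changed by 1 on the log2 scale, and 9 unchanged genes. Only 100 genes were changed at each size, up and down in equal number, so the scaling was not tested where many genes change. Alternatives used DESeq2 1.42.0 and limma 3.58.1.

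There were 46 gene lists and 13 marker lists (83 of 1052 written symbols unmatched); members and lists were chosen with earlier results of these data known. Genes named in each comparison were, with a repeat counted under each rule: the 12 called with the largest change in each direction, at 1 CPM or more and with all treated rats on one side of the control mean; the 6 with the smallest adjusted p in each direction, in every comparison; in each list the 4 called with the largest change and the most abundant one not called; the 6 called that varied most among treated rats; the first 4 of each marker list; and Cyp2e1, Gstp1, Mki67 and Phgdh. The text describes a part of these (some are not reported here), and others are said to have been chosen later. Promoter sequences are from RefSeq on GRCr8, matched by symbol, and no coordinates of the counted genes are given.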

Additional observations from a re-analysis of the deposited data

Results flagged for a closer look

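Gaps and ranges were taken on log2 of CPM plus 0.5, while the values printed below are CPM. A value counts as far from its group when its gap to the nearest of the other 7 rats, divided by the group's range, passes Dixon's 95% critical value. This was so in 14 of 404 groups of the named genes (3.47%), and chance gives about 1 in 20. In 3-methylfuran rats at 1.0 mg/kg, rat ME587 was high for Gstp1 (638 CPM), Gstm1 (3854 CPM) and Hamp (475 CPM), rat ME591 was low for Cyp2c24 (1.19 CPM), rat ME592 was low for Knl1 (0.449 CPM), and rat ME584 was high for Cfd (9.53 CPM). Among control rats, rat MC508 was high for Gdf3 (0.372 CPM) and Rpl10 (853 CPM) and low for Nox4 (7.97 CPM) and Cyp2c11 (1100 CPM). Control rat MC510 was low for Mcm6 (0.598 CPM), rat MC502 for Epha2 (27.2 CPM), and rat MC507 for Adamtsl2 (6.75 CPM) and Prcp (19.6 CPM).

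Genes named only in other comparisons were not counted here, and many of those counted were named for a small adjusted p in the same test. The effect of 3-methylfuran at 1.0 mg/kg minus that of furan at 2.0 mg/kg was tested as a difference of effects in one fit. It was called for 16 of the genes named in that comparison. On the log2 scale it was 3.15 for Myc, 2.21 for Cyp2c12, 1.58 for Mest, 1.13 for Magi3, 0.88 for Spata13, 0.87 for Tent2, 0.77 for Dennd4a and 0.61 for Kdm6a. It was -4.78 for Zbtb16, -2.57 for Adamtsl2, -2.56 for Fgf21, -2.13 for Krt19, -1.92 for Klf13, -1.88 for Epha2, -1.76 for Fmo2 and -1.26 for Pfkfb1. Against furan at 0.5 mg/kg the difference was called for 14 of those named in that comparison. It was 3.51 for Phgdh, 3.16 for Gstp1, 2.32 for Car2, 1.59 for Filip1l, 1.57 for Tmem106a, 0.96 for Usp54, 0.78 for Xrcc5 and 0.51 for Vdac2. It was -2.36 for Ankrd33b, -1.81 for Il6r, -1.72 for Pfkfb1, -1.06 for Nr1i2, -0.94 for Serpina4 and -0.94 for P4ha2. Dose, experiment and library kit differ with the compound and cannot be told apart from it.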

How the results depend on the processing

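For 3-methylfuran at 1.0 mg/kg against control, 5207 calls became 5217 with RLE scaling, 5255 with DESeq2, 5213 with limma voom, 5237 with no filter on low counts, 5058 with a strict filter of 1 CPM in 8 rats and 4832 with only these 16 rats fitted. Single runs, with fewer counts per rat, gave 3825, 3618 and 3799. Without the scaling factor 6081 genes were higher and 923 lower. A rule of at least 1.5-fold kept 1587 calls, 917 higher and 670 lower. Leaving out 1 rat gave 4880 to 5196 calls, 2407 to 2568 higher and 2432 to 2667 lower.

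Against 0.075 mg/kg, 4166 calls became 6457 without the scaling factor and 1143 at 1.5-fold or more, and 3748 to 4223 when a rat was left out. The 936 differences from furan 2.0 mg/kg became 1721 without the scaling factor, 494 and 516 in run 1 and run 2, 519 at 1.5-fold or more, 626 with no filter on low counts, and 725 to 996 when a rat was left out. The 2774 differences from furan 0.5 mg/kg became 1224 at 1.5-fold or more and 2468 to 2811 when a rat was left out. Run 3 was not used for furan rats, which had 2 runs.

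Of the fold changes of the 202 named genes over all alternatives, 5135 values kept their side of the threshold, 21 lost a call and 14 gained one. The 5135 include any value that turned sign without a call in either fit. A further 5 turned sign with a call in the reported or the alternative fit. The 5 arose without the scaling factor: Sparc 0.2504, Apob 0.1688, Ttr 0.0474, Actb 0.1969 and Atp5f1b 0.1606. Without that factor the medians of 25 lists changed sign, and which scaling is nearer the truth was not tested. With 100 bases before the start site in place of 250, CCAAT was in 57.1% of mitosis promoters against 20.2% of tested genes, and TTTGAA in 42.9% against 3.2%. No paired analysis was possible because the rats of the groups compared share no replicate number. A gene was tested only with at least 0.672 CPM, or 10 counts in a library of median depth, in 8 or more of the 32 rats, so genes below that in most rats were left out.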

Other observations

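Genes of the respiratory chain and of further lipid pathways changed by small amounts. Of 75 oxidative phosphorylation genes tested 31 were lower and 5 higher (48%, against 43.6% of all genes tested). Their median log2 fold change was -0.11, and none was called with at least a 1.5-fold change. Without the scaling factor 37 were higher and 1 lower. Ndufb2 and Ndufa11, accessory subunits of complex I, changed by -0.40 ± 0.058 and -0.39 ± 0.061 with no overlap between groups, and Atp5f1b, the catalytic beta subunit of ATP synthase, was not called (-0.09 ± 0.053, adjusted p = 0.18). In beta-oxidation the short-chain dehydrogenase Acads ran over 83.5 to 123.2 CPM (median 105) in 3-methylfuran rats and 134 to 182 CPM (median 152) in control rats, and Decr1, which handles unsaturated chains, over 84.2 to 125 CPM (median 104) and 138 to 198 CPM (median 161) (log2 fold changes -0.59 ± 0.075 and -0.62 ± 0.078). Neither gene's groups overlapped. Acaa2, a mitochondrial thiolase, was not called (0.035 ± 0.067, adjusted p = 0.71). Of 23 cholesterol synthesis genes 10 were lower and 1 higher (4 lower and 2 higher without the scaling factor). The share called was 47.8%, against 43.6% of all genes tested. Insig1, which restrains sterol synthesis, ran over 139 to 405 CPM (median 254) and 199 to 909 CPM (median 679) (-1.23 ± 0.29, adjusted p = 0.001), and Ebp, a sterol isomerase, changed by -0.65 ± 0.085 with no overlap. Idh1, a cytosolic source of NADPH, was higher by 0.43 ± 0.068, and Ftl1, the ferritin light chain, by 0.58 ± 0.12.

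Of 25 cytoskeleton genes 10 were higher and 3 lower, with a median of 0.21 (15 higher and 1 lower without the scaling factor). Calls made up 52% of that list, against 43.6% of all genes tested. Anxa2, a membrane-binding annexin that adult hepatocytes express at low levels, ran over 11.7 to 45.9 CPM (median 22.4) in 3-methylfuran rats and 4.45 to 9.2 CPM (median 6.9) in control rats with no overlap (1.85 ± 0.20, adjusted p = 7.4e-09). Tubb6, a beta tubulin, changed by 1.30 ± 0.27, and Actb, beta actin, was not called (-0.056 ± 0.078, adjusted p = 0.59). Of 22 genes of DNA methylation and chromatin 8 were higher and 5 lower (14 higher and none lower without the scaling factor), among them Setd7 and Uhrf1, given above, and Hmgb2, a chromatin protein of dividing cells (4.49 to 8.73 CPM (median 7.19) against 1.59 to 4.17 CPM (median 3.07); 1.21 ± 0.14). Calls made up 59.1% of the chromatin list, against 43.6% of all genes tested. Of 39 proteasome genes 8 were higher and 8 lower, a share called of 41% against that 43.6%. Without the scaling factor 31 proteasome genes were higher and none lower. Of 16 pericentral genes 3 were higher and 8 lower (3 higher and 5 lower without the scaling factor), with Rhbg, an ammonium carrier, at 5.96 to 15 CPM (median 9.68) in 3-methylfuran rats and 1.94 to 5.22 CPM (median 4.02) in control rats (1.41 ± 0.26). Of 13 periportal genes 1 was higher and 4 lower (38.5%, against 43.6% of all genes tested). Of 3 adipocyte markers tested Cfd and Cidec were lower (-0.53 ± 0.16 and -0.75 ± 0.063, Cidec being named after its value was seen), and the summed level of the list was 53.2 to 62.3 CPM in 3-methylfuran rats and 75.6 to 102.4 CPM in control rats, with no overlap. Fabp4, the third marker, was higher, at 2.23 to 4.64 CPM (median 2.57) and 0.298 to 1.19 CPM (median 0.949) (1.85 ± 0.24, adjusted p = 1.5e-07). Of 6 red blood cell markers 1 was higher and 3 lower, and of 13 mitochondrially encoded genes none was higher and 4 were lower (3 higher and 2 lower without the scaling factor).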
